A study of Mus musculus with 6 samples.

Results

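Aminoacyl-tRNA synthetases join each amino acid to its tRNA, and so supply every ribosome with charged tRNA. Most mammalian cells carry a cytosolic set and a separate mitochondrial set, both encoded in the nucleus, and the symbols of the mitochondrial set end in 2. Several cytosolic enzymes sit together in the multi-synthetase complex. Gars and Kars each serve both compartments, so they have no mitochondrial partner gene.

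The genes described here are 36 named synthetase genes of the mouse, 20 cytosolic and 16 mitochondrial, found by symbol in the gene name column of 4 peak lists. Of these, 34 were named in at least 1 list, 19 cytosolic and 15 mitochondrial, among 20691 genes named in all. The lists name no peak to Hars or Sars2. The rule uses symbols and no measured value.

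The lists come from EML cells, a mouse blood precursor line of strain B6D2F1 per the labels. The cells were sorted by surface markers, and lin-CD34+ cells were kept apart from lin-CD34- cells. STAT3 and SOX4 were immunoprecipitated from lin-CD34+ cells, GABPa from lin-CD34- cells, and open chromatin was mapped by ATAC-seq in lin-CD34+ cells. STAT3 is activated by cytokine receptors, SOX4 is an HMG-box factor, and GABPa is an ETS-family factor known for its sites at genes of mitochondrial function. Each population also has a control library, titled input but labelled with normal IgG, which was not used here. Each of the 6 groups was 1 library, so no value has a replicate and no test was run. GABPa differs from the other lists in both antibody and population, and these cannot be told apart. EML is a single line, so the values describe that line.

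The lists hold 885 STAT3, 3016 SOX4 and 2525 GABPa peaks and 143365 distinct ATAC intervals. STAT3 peaks rest on 11 to 112 tags each. SOX4 peaks are thinner, with 8 to 29 tags, and GABPa peaks have 10 to 215. All 8 blood precursor marker genes (Cd34, Kit, Gata2, Tal1, Lmo2, Runx1, Ptprc and Spi1) had an ATAC interval at the promoter (within 1000 bp of the transcription start), against 68.2% of all genes in the lists, with a median of 1016 open bases against 652. Runx1, on 40 tags, and Kit, on 37, also had a STAT3 promoter peak, as did 1.98% of all genes. Of 8 marker genes of other tissues 4 (Myod1, Pax6, Cdx2 and Krt5) had an ATAC promoter interval (50.0%, against 68.2%), with a median of 232 bases.

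The first question was how many synthetase promoters each factor occupied, and whether the cytosolic and mitochondrial sets differed. A promoter peak is one centred within 1000 bp of a transcription start site (TSS) by the authors' distance column. STAT3 had a promoter peak at 2 of 34 members (5.88%, exact 95% interval 0.720 to 19.7), Yars and Eprs, against 1.98% of all genes in the lists. GABPa had one at 2 of 34 (5.88%, 0.720 to 19.7), Yars and Rars, against 1.54% of all genes. SOX4 had none at 34 members, which allows a share of up to 10.3%, against 0.764% of all genes. For each factor the background lies inside the members' interval, so these counts do not set the synthetases apart. By nearest gene at any distance STAT3 and GABPa still had peaks at 2 of 34 members each, against 4.12% of all genes for STAT3 and 9.59% for GABPa. Intervals treat genes as independent and cover counting error only.

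All 4 of these factor promoter peaks lay at cytosolic genes. STAT3 and GABPa each had a peak at 2 of 19 cytosolic promoters (10.5%, upper bound 33.1) and at 0 of 15 mitochondrial promoters, which allows a share of up to 21.8%. The difference was 10.5 percentage points for each factor, with a Newcombe 95% interval from -11.2 to 31.4 that includes 0. Among protein-coding genes alone the backgrounds were 2.18% for STAT3, 0.756% for SOX4 and 1.67% for GABPa.

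**Figure D1:**
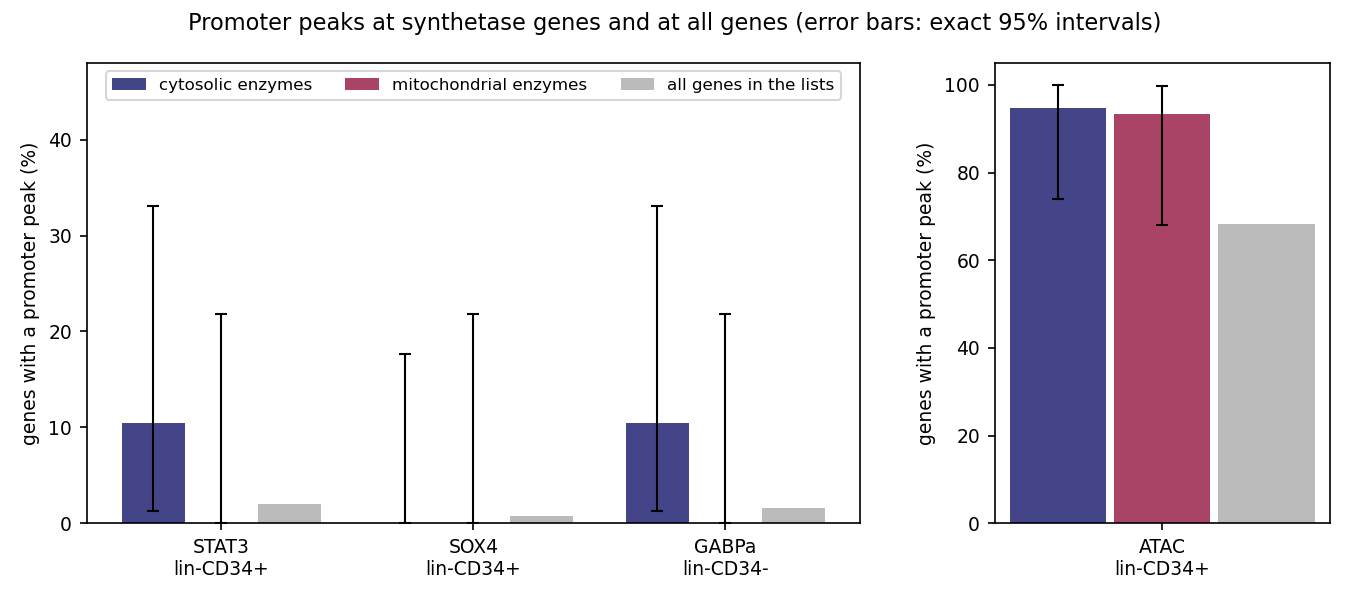
Percent of genes with a promoter peak, for cytosolic (blue) and mitochondrial (red) synthetase genes and all genes in the lists (grey), with the factors on the left and ATAC on a separate scale on the right. Error bars are exact 95% intervals. The STAT3 and GABPa bars of cytosolic genes stand at 10.5%, with no bar for mitochondrial genes, and the ATAC bars of both sets stand above the 68.2% of all genes.

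Yars, the cytosolic tyrosyl-tRNA synthetase gene (Entrez 107271, chromosome 4, mm10), was the only member with peaks of all 3 factors. Its promoter faces that of S100pbp, which encodes a binding protein of S100P. In the RefSeq promoter table the 2 starts lie 324 bp apart on opposite strands. The STAT3 peak, at 129189525 to 129189837, was centred at -114 bp from the TSS used by the lists, and the GABPa peak, at 129189512 to 129190267, at 94 bp. When a score at or above the list's median was required, Yars alone of the 34 members kept a STAT3 promoter peak, against 1.15% of all genes, and alone kept a GABPa promoter peak, against 1.27%. Both peaks are annotated to the S100pbp start and named to Yars, so they cannot be assigned to either gene alone. The stretch printed here ends at the base before that TSS and lies wholly inside the STAT3 peak, the GABPa peak and an ATAC interval. It is 142 bases, chr4:129189653-129189794, plus strand, from RefSeq's GRCm38.p6 table, and the capitals mark the 1 match to the ETS core CGGAA, read on the other strand, which starts at -9 from the TSS.
Yars: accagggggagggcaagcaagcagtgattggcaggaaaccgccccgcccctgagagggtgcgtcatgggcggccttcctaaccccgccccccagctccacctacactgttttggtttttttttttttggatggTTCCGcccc

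At Yars the GABPa peak was among the strongest of its list. It was called on 76 tags at a score of 1029.83 with 35.04-fold enrichment, and ranked 31 of 2525 by score. The score is the authors' −10 log10 p, and it and the fold compare peaks within a list only. The STAT3 peak at Yars ranked 210 of 885, at a score of 126.2, on 41 tags and 22.57-fold enrichment. It lay wholly inside the GABPa peak, of which it took 41.4%, and wholly inside the ATAC interval at 129189521 to 129190306. The GABPa peak shared 747 of its 756 bases with that interval. The factors were mapped in different populations, so a shared site does not show that both were there in the same cells.

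The third Yars peak was of SOX4 and lay in the gene body. It was 218 bp wide, in intron 4 of 12, at 14283 bp from the TSS, with 13 tags and a fold of 10.76 against a list minimum of 10.01. An ATAC interval covered 103 of its bases (47.2%), including the summit. It was the only one of the 4 SOX4 peaks at synthetase genes to meet open chromatin.

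Eprs encodes the enzyme that charges tRNA with glutamate and with proline, a member of the multi-synthetase complex (Entrez 107508, chromosome 1). Its STAT3 peak, at 185362847 to 185363158, was centred at -93 bp from the TSS. It was called on 27 tags at 27.21-fold enrichment, and by its score of 90.01 it ranked 482 of 885, just past the middle of the list. The whole peak lay inside an ATAC interval of 1222 bp. The 250 bases before the start in RefSeq's GRCm38.p6 table, chr1:185362794-185363043, plus strand, are printed with the 197 bases inside the STAT3 peak in capitals. They hold no TTCNNNGAA, the STAT family letters, on either strand, and nor does the Yars promoter in that table. A missing match says only that these letters are not in this window.
Eprs: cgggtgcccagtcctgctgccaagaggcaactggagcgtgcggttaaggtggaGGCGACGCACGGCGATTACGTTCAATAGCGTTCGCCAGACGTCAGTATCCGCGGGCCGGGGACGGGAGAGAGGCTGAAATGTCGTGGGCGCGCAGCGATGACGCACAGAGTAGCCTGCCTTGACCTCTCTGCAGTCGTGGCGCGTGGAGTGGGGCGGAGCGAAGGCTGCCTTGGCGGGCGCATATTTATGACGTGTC

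Rars, the cytosolic arginyl-tRNA synthetase gene and another complex member (Entrez 104458, chromosome 11), had the second GABPa promoter peak. The peak ran from 35834308 to 35836067 and was 1760 bp wide, against a median of 1020 bp for GABPa promoter peaks. It ranked 1311 of 2525 at a score of 96.17, on 18 tags and 20.2-fold enrichment. Its centre was at -659 bp from the TSS and its summit at -274 bp. An ATAC interval of 635 bp around the TSS shared 476 bases with it (27.0% of the peak), but the summit lay outside that interval. Within 500 bp of a TSS only Yars kept a GABPa promoter peak, 1 of 34 members against 1.07% of all genes.

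**Figure D2:**
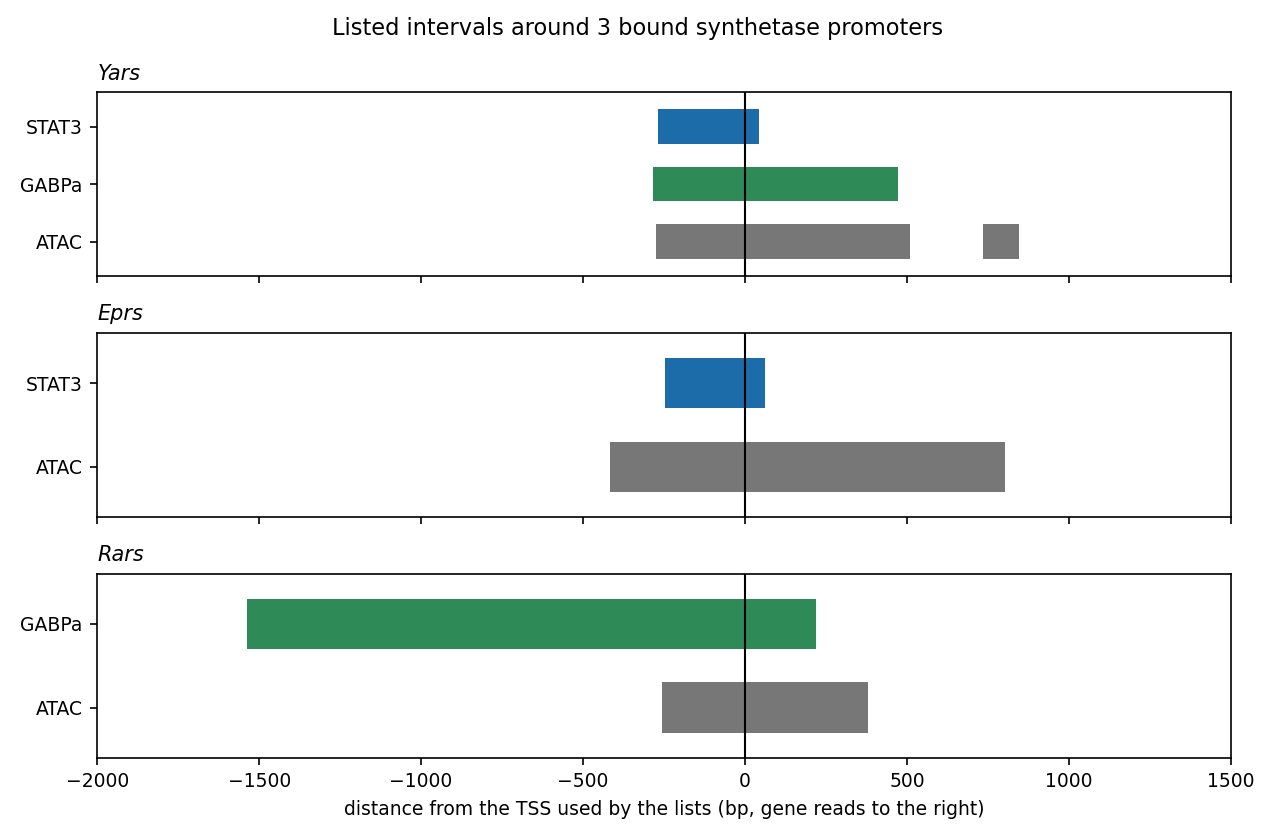
Listed STAT3 (blue), GABPa (green) and ATAC (grey) intervals around the TSS of Yars, Eprs and Rars, with the distance from the TSS in bp on the x axis and each gene reading to the right. At Yars and Eprs the STAT3 peak sits inside the ATAC interval, and at Rars the GABPa peak runs 1760 bp, mostly upstream of the 635 bp ATAC interval.

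The gene name column gives each peak to 1 gene, which matters for crowded starts. Vars, the cytosolic valyl-tRNA synthetase gene, had a STAT3 peak on chromosome 17 from 35000397 to 35000747, centred at -336 bp from its start, that the list names to D17H6S56E-5. That peak shared 140 bases with the ATAC interval named to Vars, and rested on 30 tags at 29.69-fold enrichment. Vars is named here after its values were seen. Counted by position, a way added after seeing the data, STAT3 had a promoter peak at 3 of the 33 members with a placed TSS (Eprs, Vars and Yars, 9.09%, 1.92 to 24.3), against 2.38% of all genes. By position GABPa had Rars and Yars (2 of 33, against 1.73% of all genes) and SOX4 had none (against 0.804%). A GABPa peak named to Adat1, a tRNA adenosine deaminase gene, on 33 tags, lay 793 bp from the end of Kars where transcription stops. It counts for Kars only when either end of a gene in the gene table may lie within 1000 bp, which gives GABPa 3 of 36 members (Kars, Rars and Yars, 8.33%) against 2.03% of all genes. In that count STAT3 has 2 of 36 (Vars and Yars) against 2.38%, without Eprs, whose gene in the table starts at 185361417.

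SOX4 peaks at synthetase genes were all intronic. By nearest gene at any distance SOX4 had a peak at 4 of 34 members (11.8%, 3.30 to 27.5) against 12.5% of all genes, a share near the background. The cytosolic genes were Yars, Cars and Nars, for cysteine and asparagine in the last 2, and the mitochondrial gene was Wars2, for tryptophan. The Wars2 peak (Entrez 70560, chromosome 3, 99149932 to 99150110, intron 1 of 5) ranked 3 of 3016 by score, at 114.36, with 14 tags and a fold of 27.21. Its false discovery rate in the authors' list was 4.92%, the highest value in that list. It lay 8931 bp from the TSS and met no ATAC interval.

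The other SOX4 peaks were weaker. The Nars peak, on 9 tags with a fold of 15.86, lay in intron 8 of 14 inside a B3A SINE repeat. The Cars peak, on 10 tags with a fold of 11.39, ranked 2860 of 3016. It lay 2797 bp from the TSS, the only member peak of SOX4 within 5000 bp, where 4.06% of all genes had one. Neither met an ATAC interval, against 5.40% of all SOX4 peaks that did. Over the 3 factors, 5 of the 8 peaks at synthetase genes overlapped an ATAC interval by at least 1 bp. These were both STAT3 peaks, both GABPa peaks and the Yars SOX4 peak, where the lists as a whole had 78.4% for STAT3 and 16.8% for GABPa. The STAT3 and GABPa peaks at synthetase genes were all promoter peaks, against 416 of 885 STAT3 and 354 of 2525 GABPa peaks in the lists. Overlap among promoter peaks alone was not counted. The list shares here and below are thus not a like background for them. The GABPa peaks are of lin-CD34- cells and the ATAC intervals of lin-CD34+ cells. Their overlap does not show that these sites were open in the cells where GABPa was mapped. With at least 50% of the peak covered, 3 of the 8 remained, both STAT3 peaks and the Yars GABPa peak. The list shares were then 73.7% for STAT3, 2.32% for SOX4 and 5.03% for GABPa. By the centre of the peak the count was again 3 of 8, with list shares of 75.0% for STAT3, 2.65% for SOX4 and 6.69% for GABPa.

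**Figure D3:**
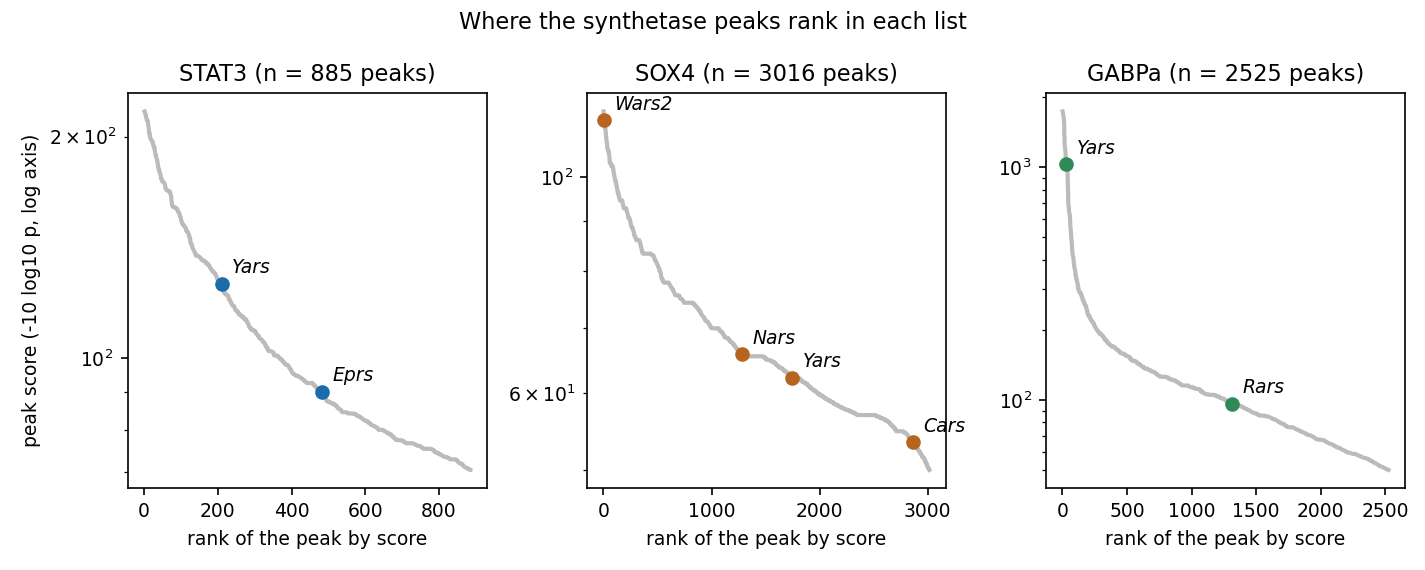
Score of every listed peak (grey line, log axis) by its rank in the STAT3, SOX4 and GABPa lists, with the peaks named to synthetase genes as labelled points. Wars2 is 3 of 3016 for SOX4 and Yars is 31 of 2525 for GABPa, and the other 6 points rank between 210 and 2860.

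The second question was how open the synthetase promoters were in lin-CD34+ cells. An ATAC promoter interval was named to 32 of 34 members (94.1%, 80.3 to 99.3), against 68.2% of all genes and 71.7% of protein-coding genes, both below that interval. The gap depends on the window. Within 500 bp it was 31 of 34 (91.2%) against 59.1% of all genes. Within 5000 bp it was again 32 of 34, against 89.8% of all genes, which lies inside the interval. Hars and Sars2, which no list names, are outside the 34. All 34 had an ATAC interval at some distance, as did 98.4% of all genes, so this list itself largely sets both denominators. With either end of a gene within 1000 bp, 34 of all 36 members had one (94.4%), against 73.8% of all genes in the lists. That is not a count of open promoters. Sars2 enters it only by an interval 256 bp from its end, where transcription stops. It leaves out Eprs and Wars2, which have 1222 and 833 open bases at the TSS used by the lists. By promoter intervals named to the gene, the sets had 18 of 19 cytosolic genes (94.7%, 74.0 to 99.9) and 14 of 15 mitochondrial genes (93.3%, 68.1 to 99.8). The difference was 1.40 points, with an interval from -18.7 to 25.0. The exceptions were Kars and Ears2, the mitochondrial glutamyl-tRNA synthetase gene, and each shares its start with a neighbour. The Kars start faces that of Terf2ip, a telomere protein gene, 5 bp away, and an ATAC interval of 1206 bp named to Terf2ip covers both. The Ears2 start faces that of Ubfd1 at 112 bp, and an interval of 1288 bp named to Ubfd1 covers it. By position every one of the 18 cytosolic members with a placed TSS had an ATAC promoter interval, and Sars2 was the 1 exception among 15 mitochondrial members, which makes 32 of 33 (97.0%) against 71.2% of all genes.

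The ATAC list has no score, so the extent of each promoter's intervals was used to describe how open it was. Only intervals named to the gene were counted, so those named to a neighbour near the same start were left out. Members with an interval had a median of 882 open bases (range 451 to 1361), against 652 for all 14107 genes with one. The open bases exceeded that median at 16 of 18 cytosolic genes and 10 of 14 mitochondrial genes. Cytosolic genes had a median of 888 bases (620 to 1361) and mitochondrial genes 811 (451 to 1342). The ranges overlap over most of their length, and no test of the difference was run. The 7 complex genes with an open promoter had a median of 813 bases (635 to 1361), and the 11 other cytosolic genes 891 (620 to 1303).

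By named intervals, the widest open promoter among cytosolic genes was at Mars, for methionine, with 1361 bases in 2 intervals. Gars, for glycine, had 1303 in 2. Eprs followed with 1222, Cars with 1063 in 3 intervals and Wars, for tryptophan, with 1002. The narrowest were at Tars, for threonine, with 620 bases, and at the bound gene Rars with 635. Nars had 665, Qars, for glutamine, 671 and Lars, for leucine, 713. Yars had 898 bases, so by this count the 3 genes with a STAT3 or GABPa promoter peak were spread over this range. The order depends on the naming. For Vars (891 bases) a nearby interval of 472 bp named to D17H6S56E-5 is left out. For Yars, intervals of 277 and 76 bp named to S100pbp are left out. Kars, with an interval of 1206 bp named to Terf2ip, is not ranked. The Wars interval is annotated to the start of another gene, Wdr25, so its bases cannot be assigned to Wars alone.

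Among mitochondrial genes Yars2, for tyrosine, had the most open bases, 1342 in 1 interval. Iars2, for isoleucine, had 1131, Lars2 1053, Vars2 950 and Hars2 928. The Hars2 interval, chromosome 18, 36782943 to 36783870, is annotated to the start of Hars, which overlaps Hars2 at that end in the gene table, so 1 interval meets both histidine genes. At the low end were Aars2, for alanine, with 451 bases, Pars2, for proline, with 511, Rars2 with 514, Fars2, for phenylalanine, with 646 and Tars2 with 693. The Rars2 value leaves out an interval named to Orc3, an origin recognition gene whose start faces that of Rars2 at 15 bp, which covers the shared start.

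**Figure D4:**
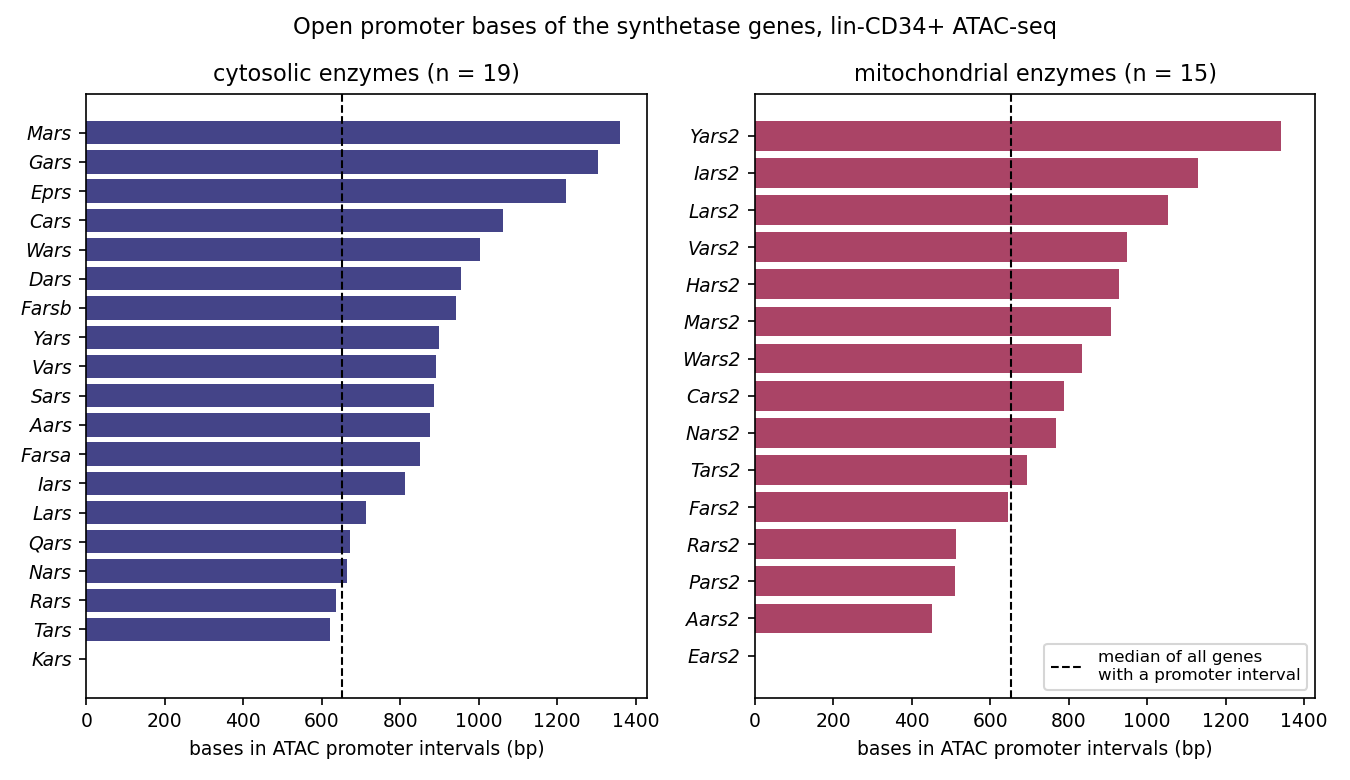
Bases in ATAC promoter intervals named to each synthetase gene, cytosolic on the left and mitochondrial on the right. The dashed line is the 652-base median of all genes with a promoter interval. Mars (1361) and Yars2 (1342) lead their sets, and Kars and Ears2 are at 0 because the interval at their shared start is named to the neighbour.

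Most open promoters were a single interval close to the TSS. Of 32 members 23 had 1 interval (71.9%, against 66.9% of all genes), and the widest interval was centred within 200 bp of the TSS at 26 (81.2%, against 53.9%). At any distance all 34 named members had an ATAC interval, as did 98.4% of all genes. Beyond the promoter members had a median of 3.00 further ATAC intervals, the same as all genes, with 3.50 for cytosolic and 1.00 for mitochondrial genes. Fars2 had the most intervals in all, 25, spread over a gene of 420168 bp. Tars had 19, but 15 of these lay outside the gene, where the annotation gives Adamts12, and were named to Tars as the nearest TSS.

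Shared starts were also counted, which was not among the planned results, and no interval was computed. The RefSeq promoter table lacks Cars, Hars, Lars, Nars, Rars, Vars, Wars, Hars2 and Pars2. Most of these are cytosolic. Among them are Hars and Hars2, which overlap at the start of Hars, and Vars, whose start is crowded. The split between the sets leaves these starts out. Of the 27 members in the RefSeq promoter table, 6 had the start of another protein-coding gene on the opposite strand within 1000 bp upstream (22.2%), against 8.48% of 17492 protein-coding genes. The cytosolic genes were Kars and Yars, and the mitochondrial genes were Ears2, Fars2, Rars2 and Sars2. Fars2 faces Lyrm4, an iron-sulfur cluster assembly gene, at 286 bp, and Sars2 faces Mrps12, a mitochondrial ribosomal protein gene, at 147 bp. This was 2 of 13 cytosolic and 4 of 14 mitochondrial genes. Neither this difference nor the one from all protein-coding genes was tested.

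The letters of an ETS-family site, CCGGAAG on either strand, were sought from 250 bases before to 50 after each start, because GABPa belongs to that family. They were found at 9 of 27 members (33.3%), 5 of 13 cytosolic and 4 of 14 mitochondrial. The share was 9.93% of all 27025 promoters in the table, 12.9% of protein-coding genes and 17.5% of protein-coding genes with an ATAC promoter interval. Of the 24 members in the table that have such an interval, 7 held the letters (29.2%). None of the 9 genes had a listed GABPa peak, and of all 2265 protein-coding genes with the letters only 83 (3.66%) had a GABPa promoter peak, so 0 of 9 is near the background. Yars, which had a GABPa peak, held only the shorter core. Rars, the other member with a GABPa promoter peak, is not in the promoter table, so its letters were not read. The 0 of 9 could thus have counted Yars only, and it does not tell whether letters and peaks coincide in this family. A match is a description and not a site, and the differences between these shares were not tested. The sites are printed 5′ to 3′ on the gene's strand with 10 bases either side and the match in capitals, and the RefSeq GRCm38.p6 start is base 0. At 7 of the 9 the match began in the 30 bases before the start, against 683 of 2265 protein-coding genes with a match (30.2%), a window chosen after the matches were seen.
Kars (first base at -6): gccctctttcCCGGAAGaggcaggact
Rars2 (-4): gcagaggcgaCTTCCGGcgcggaggcg
Sars (-10): aacactgcggCTTCCGGcgagctaggc
Cars2 (-18): agtgtagcctCTTCCGGgagtgggcgg
Farsa (-22): gctatcgcgaCTTCCGGttccagttcc
Mars2 (-23): ggcttccgcgCCGGAAGcggcggtacc
Mars (-29): gcaccgtcaaCTTCCGGgtctcgttgg
Gars (-126): agttggtgccCTTCCGGgttctctgcc
Sars2 (-154): cctccagcccCTTCCGGggttcctcct

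All 27 bases printed lay inside an ATAC interval at 8 of the 9 genes (88.9%), against 77.8% of protein-coding genes with the letters, and none did at Sars2. The STAT family letters TTCNNNGAA occurred at 3 of 27 members (11.1%: Aars, Kars and Nars2), near the 9.55% of all promoters and 8.92% of protein-coding genes. Among those with an ATAC promoter interval it was 2 of 24 members (8.33%) against 8.25%. The STAT family match at Kars, from -9 to -1, shares bases with the ETS match printed above, so the 2 are not separate stretches. The SOX family letters ACAAAG occurred at 2 of 27 (7.41%: Qars and Wars2), against 21.0% of all promoters and 19.1% of protein-coding genes. Among those with an ATAC promoter interval it was 2 of 24 members (8.33%) against 17.1%. From 150 bases before the start no member held ACAAAG, against 14.1% of all promoters. The shorter core CGGAA occurred at 19 of 27 members (70.4%), against 32.7% of all promoters, and the SOX core ACAA at 20 of 27 (74.1%), against 83.3%. Both shorter cores were set against all promoters only, which include noncoding genes and genes without an ATAC promoter interval. For CCGGAAG that background was the lowest of those given. Differences in the shares of letters were not tested.

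Genes around the synthetases were looked at in the same way. The partner list holds the scaffold proteins of the multi-synthetase complex, the mitochondrial amidotransferase subunits and the elongation factors that take up charged tRNA. Of its 20 named genes none had a promoter peak of any factor, against 1.98% of all genes for STAT3, 0.764% for SOX4 and 1.54% for GABPa, so a count of 0 is near the background. An ATAC promoter interval was named to 18 (90.0%) against 68.2% of all genes, with a median of 866 bases against 652. The amino acid response list holds genes of the response to a shortage of charged tRNA, with 21 named genes. STAT3 had promoter peaks at Ddit3, a stress transcription factor gene, on 21 tags, and at Slc3a2, an amino acid transporter subunit gene, on 28 tags, which is 2 of 21 genes (9.52%) against 1.98% of all genes. GABPa had one at Psph, an enzyme gene of serine synthesis, with 48 tags and a score of 630.38, which is 1 of 21 (4.76%) against 1.54%, and SOX4 had none, against 0.764%. ATAC promoter intervals were named to 19 of the 21 (90.5%) against 68.2% of all genes, with a median of 987 bases against 652.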

How the data were processed

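EML cells were profiled in 6 libraries, 1 a group, of which 2 are controls and were not used here. Per the submitters' processing notes the build was mm10 and the tools included MACS2, Bowtie2, CASAVA 1.7, Picard, HOMER and SAMtools, with no role stated. The sources used here give no peak caller settings, library depth or read shift for the transposase. Tag counts per peak, the score (−10 log10 p), the fold enrichment (a ratio over background) and the false discovery rate in percent are as the authors deposited them, per the file headers. All ChIP peaks have a fold of at least 10.01 and a false discovery rate up to 4.92%.

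Members were matched by symbol. ATAC entries (195295) were reduced to 143365 distinct intervals. Open bases are the union of intervals named to the gene and centred within 1000 bp of a TSS. Backgrounds are all 20691 genes named in the lists. A TSS was placed from list distances (tolerance 2 bp) for 19354 genes, or from the RefSeq promoter table. The gene table (GRCm38.p6) held 20649 of the 20691 by gene ID. Intervals of shares are exact Clopper-Pearson and those of differences Newcombe's, and reads without molecular identifiers are not independent molecules. With 1 library a group no test was possible. The members and lists were chosen with earlier results of these data known, and complex membership was added after seeing the data. Genes named with values were all members with a factor peak, those without an ATAC promoter interval, the 5 most and 5 least open of each set, and other-list genes with a factor promoter peak. Alternatives covered the window, placement, repeats, score, gene assignment, overlap and motif length. Overlap and counting steps were tested on simulated data. Figures were drawn with matplotlib 3.10.9, and the rest used scipy 1.17.1, pandas 2.3.3 and numpy 2.4.6 under Python 3.11.15.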

Additional observations from a re-analysis of the deposited data

How the results depend on the processing

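Of 133 alternative values, 123 stayed inside the reported value's own 95% counting interval (Newcombe's for a difference between the sets), or, for median intervals and bases, within 1.5 times of it. These intervals are wide: the ATAC difference between the sets ran from 0 to 8.07 points, that of SOX4 from 0 to 9.12, that of STAT3 from 5.26 to 16.7 and that of GABPa from 5.26 to 15.0. By nearest gene at any distance the SOX4 share was 11.8%, and the ATAC share 100% for all members and for either set. With peaks of any named gene near the TSS, added after seeing the data, the cytosolic ATAC share was 100%. Counting repeated ATAC entries, the median member promoter had 4.00 intervals and 3270 bases. The ETS share was 70.4% with the shorter core CGGAA (32.7% of all promoters, the only background counted for it). The SOX share was 0 from 150 bases before the start and 74.1% with the core ACAA. Requiring a score at or above the list median left Yars for both STAT3 and GABPa (1 of 34 each). Overlap of 50% of the peak or more, or of its centre, left 3 of 8 peaks in chromatin open in lin-CD34+ cells, including the Yars GABPa peak of lin-CD34- cells. The STAT3 and GABPa shares were higher at cytosolic genes under each alternative run, always on 1 to 3 genes. By how they count, assignment at any distance, a shorter core and repeated entries can only raise a share or a count. Fewer bases before the start can only lower it. Any other cause of these shifts was not tested. No paired analysis was possible because each group had 1 library. With 9 to 76 tags a peak at these genes and lists filtered on fold, a gene without a listed peak is not shown to be unbound.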
